A study of Mus musculus with 12 samples.

Results

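Neutral and cationic amino acid transporters were measured by RNA-seq in the perihematomal caudate putamen of young and aged mice. They were taken as the 10 genes Slc38a1, Slc38a2, Slc38a3, Slc38a5, Slc1a5, Slc7a5, Slc7a8, Slc3a2, Slc7a1 and Slc7a3, found by their symbols among 54833 genes, and all 10 passed the filter on low counts. The group was selected on measured values, since Slc38a5 was known to be lower in aged mice with intracerebral hemorrhage (ICH) than in young mice with ICH. That difference is therefore described without a test. Slc38a5 was tested only between the sham groups, which that difference does not involve, although results of all 4 groups were known when the genes were chosen. The other 9 genes were also tested for the response to ICH and for its interaction with age.

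The 12 samples came from male WT C57BL/6 mice and formed 4 groups of 3. The young animals had an age of 8 to 10 weeks and the aged animals one of 20 to 22 months. In the young ICH and aged ICH groups, type IV collagenase, an enzyme that breaks the basement membrane of vessels, was infused into the right basal ganglia. The young sham and aged sham groups received the same operation with saline. Tissue was taken at 24 h after PBS perfusion, and each sample pooled 2 or 3 mice, so that *P*-values measure the spread between pools. Collagenase acts on vessels directly and differs in this from a spontaneous bleed.

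Neutral amino acids and glutamine cross neural membranes through sodium-coupled carriers of the Slc38 family and through exchangers of the Slc1 and Slc7 families. Slc38a1 and Slc38a2 are system A carriers that take up small neutral amino acids, whereas Slc38a3 and Slc38a5 are system N carriers, which can also release glutamine and are known from astrocytes and, for Slc38a5, from endothelial cells. Slc1a5 exchanges neutral amino acids including glutamine. Slc7a5 and Slc7a8 exchange large neutral amino acids and reach the membrane only when bound to the heavy chain Slc3a2 (CD98). Slc7a1 and Slc7a3 carry cationic amino acids such as arginine, and Slc7a1 and Slc7a5 are known transporters of the blood-brain barrier.

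In GRCm38 coordinates, Slc38a5 (ENSMUSG00000031170) lies on the plus strand of chromosome X from 8271133 to 8280179, and Slc7a3 is on the minus strand of the same chromosome from 101079210 to 101086020. Slc38a1 (chromosome 15, 96571418 to 96642913) and Slc38a2 (chromosome 15, 96687392 to 96699730) are neighbors on the minus strand. Slc3a2 (ENSMUSG00000010095) is on the minus strand of chromosome 19 from 8706882 to 8723369, and Slc1a5 (ENSMUSG00000001918) on the plus strand of chromosome 7 from 16781340 to 16798274. Slc38a3 lies on chromosome 9 (107650634 to 107669530), Slc7a1 on chromosome 5 (148327410 to 148399904), Slc7a5 on chromosome 8 (121881150 to 121907694) and Slc7a8 on chromosome 14 (54722209 to 54781946). All are annotated as protein-coding, and no exon of the 10 overlaps an exon of another gene in GENCODE vM21 on either strand.

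RefSeq promoter windows of GRCm38.p6, each of 300 bases around a transcription start, were found for 5 of the 10 genes, with 6 windows in all. Those of Slc38a5 and Slc3a2 are shown, because Slc38a5 had the largest difference between ages and Slc3a2 is the shared heavy chain that rose after ICH. Capitals mark the E-box CACGTG, which reads the same on both strands.
Slc38a5, chrX:8271131-8271430, plus strand: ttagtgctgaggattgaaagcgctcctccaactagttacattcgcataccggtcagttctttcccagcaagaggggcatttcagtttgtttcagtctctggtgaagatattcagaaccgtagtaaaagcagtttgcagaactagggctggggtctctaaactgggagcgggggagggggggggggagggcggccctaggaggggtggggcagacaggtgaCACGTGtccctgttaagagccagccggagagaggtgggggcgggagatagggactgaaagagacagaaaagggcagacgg
Slc3a2, chr19:8713848-8714147, minus strand: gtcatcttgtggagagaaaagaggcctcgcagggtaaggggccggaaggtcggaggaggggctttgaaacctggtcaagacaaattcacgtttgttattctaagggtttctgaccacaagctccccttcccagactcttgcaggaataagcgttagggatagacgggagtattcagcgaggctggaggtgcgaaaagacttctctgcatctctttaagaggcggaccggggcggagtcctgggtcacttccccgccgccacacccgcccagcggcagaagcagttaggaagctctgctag
The window of Slc38a5 held the E-box from position -30 relative to the start, as did 7.15% of 32851 windows of the mouse genome. The window of Slc3a2 held neither the E-box nor the other motifs searched on both strands, TGATGNAAN of ATF4 composite elements (3.95% of windows) and TGACNNNGC of antioxidant response elements (12.4%). TGACNNNGC was present in 1 of the Slc7a1 windows at -11, on the strand opposite to the gene, and in that of Slc38a2 at -27. Both windows shown surround a RefSeq start inside the gene as GENCODE draws it. A match describes letters in a window and no binding site.

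The libraries held 28410896 to 37785160 counts assigned to genes. Marker lists were summed in FPKM (fragment counts scaled for transcript length and library size) to check the tissue. The 9 striatal markers were present in all samples, from 101.7 in aged ICH to 805.5 in young sham. The 9 choroid plexus markers were at 3211 in young ICH replicate 3, 1244 in aged ICH replicate 1 and 1590 in aged ICH replicate 2, against 5.51 to 347.8 in the other samples, and these 3 libraries stand apart. Red blood cell markers lay between 6.145 and 26.33 in young sham and between 36.48 and 153.9 in young ICH. In aged mice they overlapped, with 33.93 to 48.06 in sham and 31.18 to 87.76 in ICH. Neutrophil markers reached 27.3 in young ICH and 49.5 in aged ICH, against at most 5.098 and 18.17 in sham of the same age. Monocyte and macrophage markers reached 83.67 and 91.05, against at most 21.59 and 55.22. Fibroblast markers lay between 4.73 and 17.58, microglia markers between 86.53 and 113.5, oligodendrocyte markers between 677.2 and 1270.0 and neuronal markers between 869.7 and 1278.0. No gene of these lists was at 0 in all 12 samples together, and zeros within a group were not checked.

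The levels per transcript length spanned more than an order of magnitude. In young sham, mean FPKM was 29.4 for Slc3a2, 24.4 for Slc38a2, 17.3 for Slc7a5, 17.2 for Slc7a8, 12.9 for Slc38a1, 12.6 for Slc38a3, 5.49 for Slc7a1, 2.87 for Slc38a5, 1.98 for Slc7a3 and 1.07 for Slc1a5. Among neighbors in this order, the sample ranges of Slc7a5 and Slc7a8 overlapped and so did those of Slc38a1 and Slc38a3. The heavy chain and the system A carrier Slc38a2 were thus the most abundant, and Slc1a5 the least. In aged ICH, Slc38a5 was last at 1.17 ± 0.301 FPKM (SD, n = 3), below Slc7a3 at 2.20 ± 0.302 and Slc1a5 at 2.58 ± 0.0817, which overlapped each other. The 10 genes together summed to 125.1 ± 3.84 FPKM in young sham, 142.8 ± 2.17 in young ICH, 122.5 ± 3.92 in aged sham and 140.9 ± 7.93 in aged ICH. FPKM leave out the TMM scaling factors used for testing, which were 0.9539 to 0.9631 in young sham and 1.007 to 1.036 in young ICH. In aged mice these factors were 0.9775 to 0.9999 in sham and 1.034 to 1.041 in ICH. Relative to sham, FPKM in the ICH groups thus stand higher than values scaled with them.

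**Figure D1:**
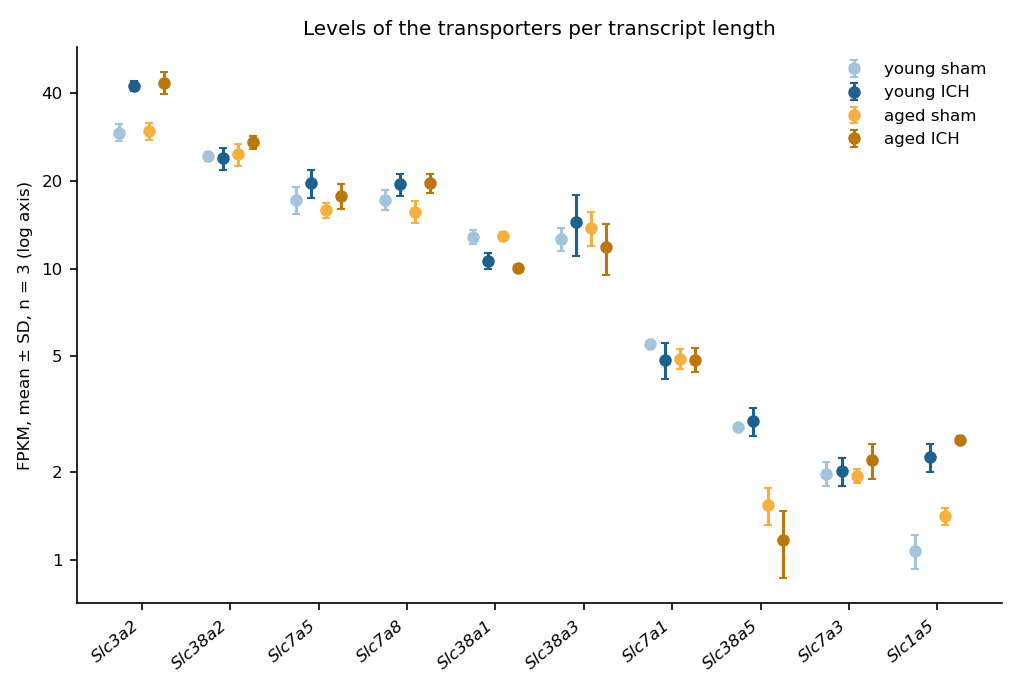
Mean FPKM (log axis) with SD of the 10 transporters in the 4 groups, n = 3, ordered by the young sham mean. Slc3a2 is first in each group, and Slc38a5 is at 2.87 FPKM in young sham and last in aged ICH at 1.17.

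Slc38a5 separated the ages. In CPM, which are counts scaled to a common library size with TMM factors, young sham replicates 1 to 3 had 6.63, 6.85 and 6.63, and young ICH replicates had 6.76, 5.86 and 7.09. Aged sham replicates had 3.01, 3.51 and 3.95, and aged ICH replicates 3.01, 2.78 and 1.79. Each of the 6 aged samples was below each of the 6 young samples, with 57 to 132 raw counts against 176 to 240. Among the ICH samples this is the difference on which Slc38a5 was selected, so it gives no separate support. The mean in aged sham was 3.49 ± 0.471 CPM (SD, n = 3) against 6.71 ± 0.127 in young sham, which is a fitted ratio of 0.52. The log2FC of this sham comparison was −0.94 ± 0.18 (SE) with an unadjusted *P* of 0.000235 and an adjusted *P* of 0.103 in edgeR's quasi-likelihood test, so it did not pass the threshold of 0.05. DESeq2 gave −0.95 with an adjusted *P* of 0.000194, and edgeR gave 0.0363 without the filter on low counts and 0.0466 without aged ICH replicate 3. Across 20 alternatives the log2FC ran from −1.04 to −0.611, and 3 of them called it.

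Of the 10 transporters, edgeR called 0 between aged sham and young sham, against 0.102% of the 21495 genes tested (22 genes). DESeq2 called 1, which was Slc38a5, where it called 148 of all genes tested higher and 141 lower. At an unadjusted *P* under 0.05 there were 2, Slc38a5 and Slc1a5, against 12.3% of all genes tested. Slc1a5 had 4.67 ± 0.623 CPM in young sham and 5.97 ± 0.332 in aged sham with ranges that did not overlap (log2FC 0.35 ± 0.12, edgeR adjusted *P* = 0.285). Slc7a1 also had ranges that did not overlap, with 66.1 ± 1.41 CPM in young sham and 57.4 ± 4.09 in aged sham (log2FC −0.20 ± 0.10, edgeR adjusted *P* = 0.458). Complete separation of 3 samples from 3 has a *P* of 0.1 in an exact rank test. The share of all genes with such ranges was not counted. The ranges of the other 7 transporters overlapped, and their log2FC ran from −0.18 for Slc7a8 to 0.09 for Slc38a3. The median of the 10 was −0.05, beside 0.01 for all genes tested.

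After ICH, Slc38a5 in young mice was at 6.57 ± 0.638 CPM (SD, n = 3), and its range overlapped that of young sham (log2FC −0.03 ± 0.18). In aged mice it was at 2.53 ± 0.647 CPM, with a log2FC of −0.47 ± 0.19 relative to aged sham. This value was −0.2703 without aged ICH replicate 3, the sample lowest in Slc38a5, −0.6147 without aged ICH replicate 1, −0.2332 on log2(FPKM + 1) and −0.9553 without the 3 libraries highest in choroid plexus markers. The aged groups met at 3.01 CPM without overlap, whereas their FPKM overlapped. The log2FC between aged ICH and young ICH, the contrast on which the gene was selected, was −1.38 ± 0.18, a ratio of 0.39. As a share of the summed FPKM of the system N carriers Slc38a3 and Slc38a5, Slc38a5 made up 18.6% ± 1.41 in young sham, 17.4% ± 1.91 in young ICH, 10.0% ± 1.04 in aged sham and 8.91% ± 1.38 in aged ICH. Slc38a3 itself, the astrocytic system N carrier, was at 69.5 ± 6.46, 74.9 ± 16.6, 74.0 ± 9.58 and 60.6 ± 11.96 CPM in these groups, and all 4 ranges overlapped in part.

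Markers of endothelial cells and astrocytes, named above for Slc38a5, and of pericytes were compared beside its levels. In bulk tissue, fewer cells of a type and less RNA per cell cannot be told apart. The 11 endothelial markers summed to 94.57 to 122.6 FPKM in young sham and 100.8 to 114.6 in aged sham, whereas young ICH had 149.2 to 166.5 and aged ICH 134.5 to 151.9. The sham ranges of these markers overlapped, as did those of the 6 pericyte markers (56.88 to 72.16 in young sham and 66.47 to 80.27 in aged sham) and the 8 astrocyte markers (326.1 to 353.7 and 333.5 to 374.5). After ICH, the endothelial sums of the ages overlapped from 149.2 to 151.9 FPKM. The pericyte sums did not, with 74.52 to 79.87 FPKM for young ICH and 65.0 to 73.7 for aged ICH, nor did the astrocyte sums, with 413.2 to 457.5 and 369.0 to 405.4, and their part in the difference of Slc38a5 was not tested.

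The choroid plexus markers also differed between the sham groups. Their sums were 347.8, 217.2 and 34.51 FPKM in young sham replicates 1 to 3 and 42.95, 29.93 and 59.49 in aged sham, and all 9 markers had log2FC below 0 in aged sham, as Slc38a5 did, with a median of −1.56 and 0 called by edgeR (0 at an unadjusted *P* under 0.05). In aged ICH the sums were 1244, 1590 and 26.9 FPKM beside 3.01, 2.78 and 1.79 CPM of Slc38a5. In young ICH they were 33.8, 5.51 and 3211 FPKM. The part of these cells in the levels of Slc38a5 was not tested. Without the 3 libraries highest in these markers, an alternative chosen after seeing the data that leaves 1 aged ICH sample, the log2FC between the sham groups was −0.94 (edgeR adjusted *P* = 0.0705) and that between aged ICH and young ICH was −1.81, with no test.

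**Figure D2:**
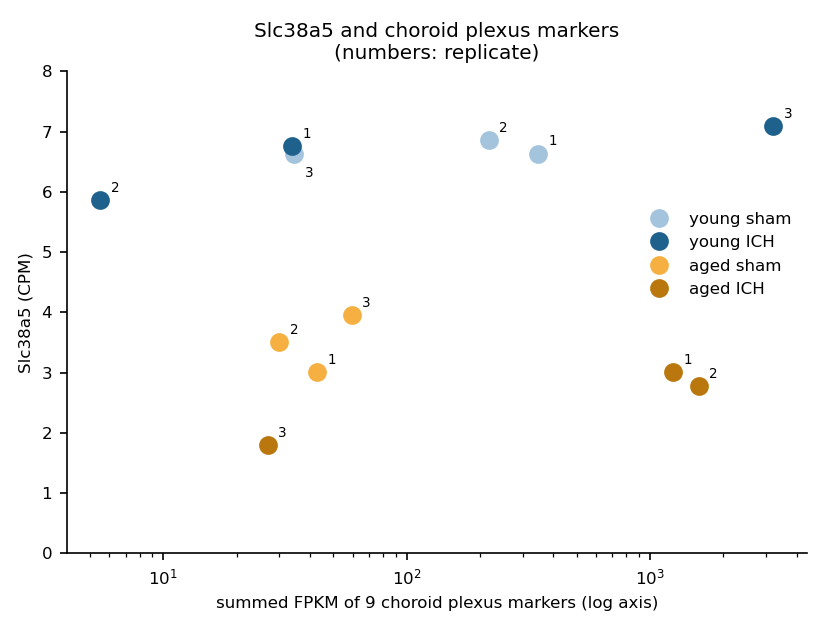
Slc38a5 in CPM against the summed FPKM of 9 choroid plexus markers (log axis) in the 12 samples, colored by group and numbered by replicate. The 6 aged samples lie at 3.95 CPM or below and the 6 young samples at 5.86 or above. Slc38a5 was selected on the difference between the ICH groups. The 3 libraries with sums of 1244 FPKM or more belong to young ICH and aged ICH.

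After ICH, Slc1a5 and Slc3a2 rose and Slc38a1 fell at both ages. In young mice, 2 of the 9 transporters tested rose and 1 fell, where 9.89% of all genes tested were called higher and 9.23% lower. In aged mice, 2 rose and 1 fell, where 7.00% of all genes tested were called higher and 6.15% lower. The median log2FC of the 9 was 0.09 in both ages, beside 0.02 for all genes in young mice and 0.00184 in aged mice.

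Slc1a5, the exchanger of glutamine and other neutral amino acids, showed the largest response of the 9. Its CPM was 5.31, 4.06 and 4.65 in young sham and 8.42, 9.02 and 10.2 in young ICH. In aged sham it was 5.63, 6.002 and 6.29, and in aged ICH 10.3, 10.7 and 10.1. The sham and ICH samples did not overlap at either age. The log2FC was 0.98 ± 0.12 in young mice (edgeR adjusted *P* = 0.00137) and 0.80 ± 0.12 in aged mice (adjusted *P* = 0.00485), or 1.97-fold and 1.74-fold. In FPKM, Slc1a5 was 0.375 ± 0.0557 times Slc38a5 in young sham, 0.756 ± 0.0806 in young ICH, 0.926 ± 0.0747 in aged sham and 2.32 ± 0.632 in aged ICH. Slc1a5 had the higher mean only in aged ICH, one of the groups on which Slc38a5 was selected, and in aged sham the ranges of the pair overlapped.

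Slc3a2, the heavy chain, rose while its light chains Slc7a5 and Slc7a8 did not pass the test. Slc3a2 was at 106, 102 and 116 CPM in young sham and 141, 150 and 149 in young ICH. It was at 109, 99.0 and 110 CPM in aged sham and 162, 136 and 147 in aged ICH. All 6 ICH samples were above all 6 sham samples. The log2FC was 0.44 ± 0.07 in young mice (edgeR adjusted *P* = 0.00337) and 0.48 ± 0.07 in aged mice (adjusted *P* = 0.00505). Slc7a5 had log2FC of 0.10 ± 0.11 (adjusted *P* = 0.545) in young and 0.09 ± 0.11 (adjusted *P* = 0.63) in aged mice with overlapping ranges. Slc7a8 had 0.09 ± 0.09 (adjusted *P* = 0.55) in young mice and 0.25 ± 0.09 (adjusted *P* = 0.0914) in aged mice, where its ranges did not overlap and where it passed without aged ICH replicate 2 (0.32, adjusted *P* = 0.0487). The FPKM ratio of Slc3a2 to the sum of both light chains was 0.851 ± 0.0316 in young sham, 1.09 ± 0.0788 in young ICH, 0.938 ± 0.0503 in aged sham and 1.16 ± 0.0491 in aged ICH.

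Slc38a1, the system A carrier known from neurons, was at 246, 222 and 227 CPM in young sham and 191, 170 and 179 in young ICH. It was at 222, 223 and 232 CPM in aged sham and 168, 167 and 167 in aged ICH. Every ICH sample was below every sham sample. The log2FC was −0.36 ± 0.06 in young mice (edgeR adjusted *P* = 0.00288) and −0.43 ± 0.06 in aged mice (adjusted *P* = 0.00381). Its neighbor on chromosome 15, Slc38a2, whose transcript is known to be induced by lack of amino acids, had log2FC of −0.12 ± 0.08 in young mice (adjusted *P* = 0.365) and 0.07 ± 0.08 in aged mice (adjusted *P* = 0.642).

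**Figure D3:**
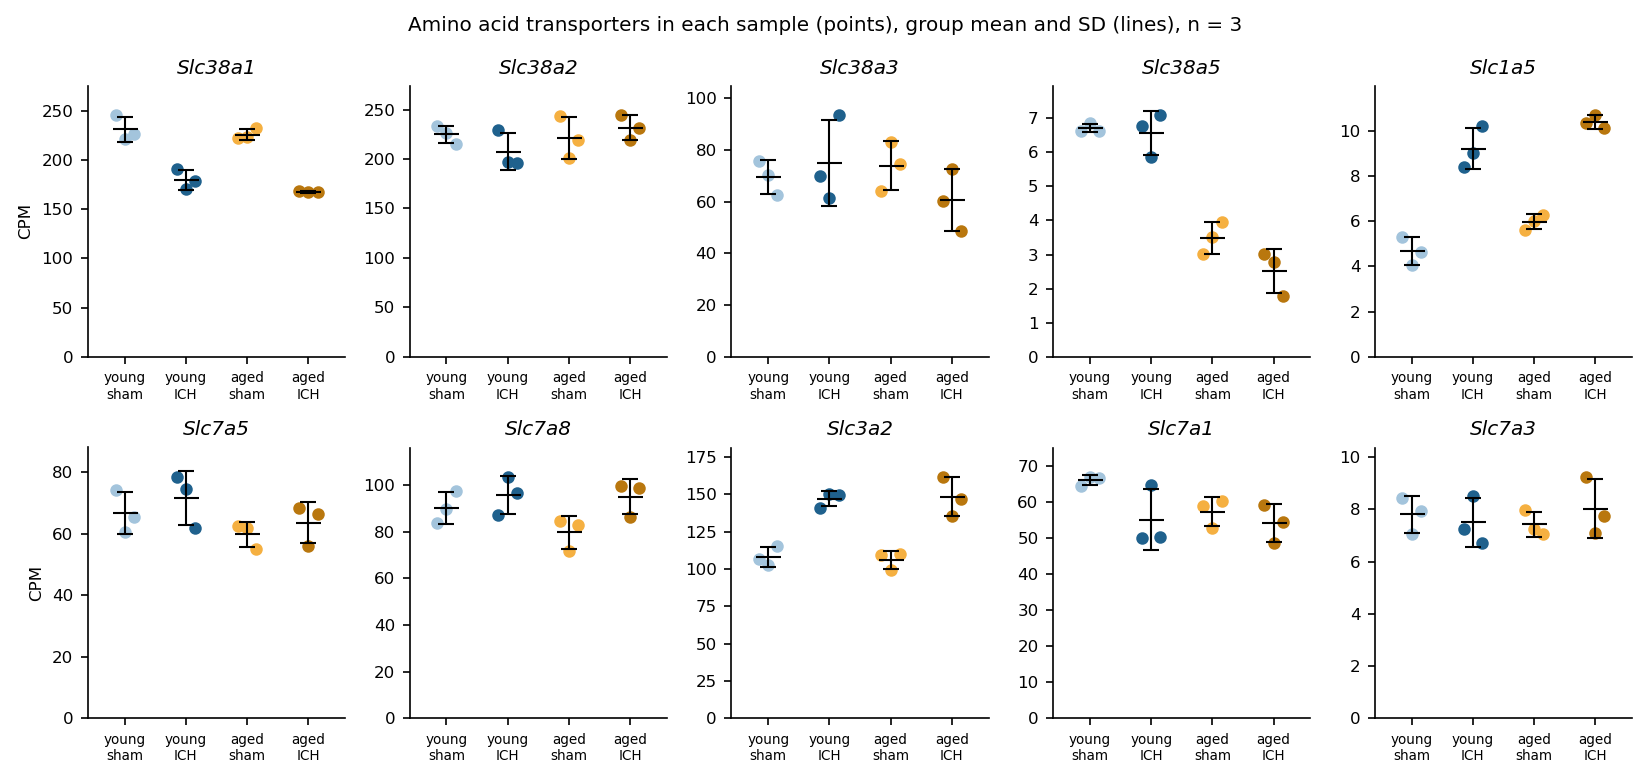
CPM of each transporter in every sample (points) with the group mean and SD (lines), n = 3, axes from 0. Slc1a5 and Slc3a2 are higher and Slc38a1 lower in the ICH samples of both ages, while Slc38a5 divides the samples by age. For the ICH groups that division is the difference on which Slc38a5 was selected.

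The cationic carriers did not pass the test. Slc7a1 was at 66.1 ± 1.41 CPM in young sham and 55.1 ± 8.45 in young ICH, where replicate 2 with 64.9 CPM lay in the sham range (log2FC −0.26 ± 0.10, edgeR adjusted *P* = 0.101). Without that library, Slc7a1 passed with −0.39 (adjusted *P* = 0.0117). In aged mice its log2FC was −0.08 ± 0.10 (adjusted *P* = 0.643). Slc7a3, known from neurons, had 6.71 to 9.26 CPM over all samples and log2FC of −0.06 ± 0.13 and 0.11 ± 0.13 in young and aged mice. Slc38a3 had 0.11 ± 0.17 (adjusted *P* = 0.699) in young and −0.29 ± 0.17 (adjusted *P* = 0.289) in aged mice.

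Across 20 alternatives, Slc1a5, Slc3a2 and Slc38a1 passed in all in young mice, with log2FC of 0.649 to 1.08, 0.403 to 0.531 and −0.407 to −0.252. In aged mice Slc3a2 passed in all 20 and the other two in 19. The exception was the fit without the 3 libraries highest in choroid plexus markers, where 1 aged ICH sample remained and was assumed to vary like the other groups. There, Slc38a1 had −0.43 (edgeR adjusted *P* = 0.0569), Slc1a5 had 0.77 (adjusted *P* = 0.0573) and Slc3a2 passed (adjusted *P* = 0.0462). The summed endothelial markers given above did not overlap between sham and ICH at either age, nor did the astrocyte markers in young mice. Neutrophil markers summed to 3.506 to 5.098 FPKM in young sham and 11.05 to 27.3 in young ICH, against 6.756 to 18.17 in aged sham and 30.73 to 49.5 in aged ICH. Monocyte and macrophage markers summed to 18.83 to 21.59 FPKM in young sham and 55.65 to 83.67 in young ICH, and to 22.14 to 55.22 in aged sham and 80.92 to 91.05 in aged ICH. Neuronal markers summed to 1114 to 1278 in young sham and 869.7 to 1094 in young ICH, and to 1093 to 1173 in aged sham and 947.2 to 1045 in aged ICH. Fibroblast markers summed to 4.73 to 8.264 FPKM in young sham and 10.25 to 17.58 in young ICH, with 5.399 to 7.191 for aged sham and 8.876 to 10.4 for aged ICH. Of the 11 endothelial markers, edgeR called 7 higher in young and 5 in aged mice, where 4 had log2FC below 0. It called 1 of 6 fibroblast markers higher at each age, with 2 below 0 in aged mice. Called higher at each age were 5 of 8 monocyte and macrophage markers. Of 8 neutrophil markers tested, 6 were called higher in young and 5 in aged mice. Over all genes these shares were 9.89% and 7.00%. Oligodendrocyte markers overlapped in young mice and summed to 825.6 to 1073 FPKM in aged sham against 677.2 to 792.3 in aged ICH. In aged mice edgeR called 3 of these 8 lower, against 6.15% of all genes. It called 3 of 8 neuronal markers lower in young mice (9.23% of all genes) and 0 in aged mice. Microglia markers called lower were 2 of 7 at each age. Striatal sums overlapped between sham and ICH at both ages. All 9 striatal markers had log2FC below 0, with medians of −0.952 in young and −1.13 in aged mice and 0 called. The part of these differences in the changes of Slc1a5, Slc3a2 and Slc38a1 was not tested.

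No difference in the ICH response between ages was detectable for the transporters. Of the 9 tested for the interaction of age and ICH, edgeR called 0 and none had an unadjusted *P* under 0.05, where 0% of all genes were called and 2.82% had an unadjusted *P* under 0.05. DESeq2 also called 0 of the 9. The smallest unadjusted *P* in edgeR was 0.125, for Slc38a3, with a difference in log2FC of −0.40 ± 0.24. The differences for the called genes were −0.18 ± 0.17 for Slc1a5, 0.04 ± 0.11 for Slc3a2 and −0.07 ± 0.08 for Slc38a1. Slc38a5 had −0.44 ± 0.25, with no test. Between aged ICH and young ICH, the other 9 transporters had log2FC from −0.31 ± 0.17 for Slc38a3 to 0.17 ± 0.12 for Slc1a5, given without a test. Slc38a1 was the only one of them whose ranges did not overlap in this contrast, with a log2FC of −0.10 ± 0.06. How many of all genes had such ranges was not counted.

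**Figure D4:**
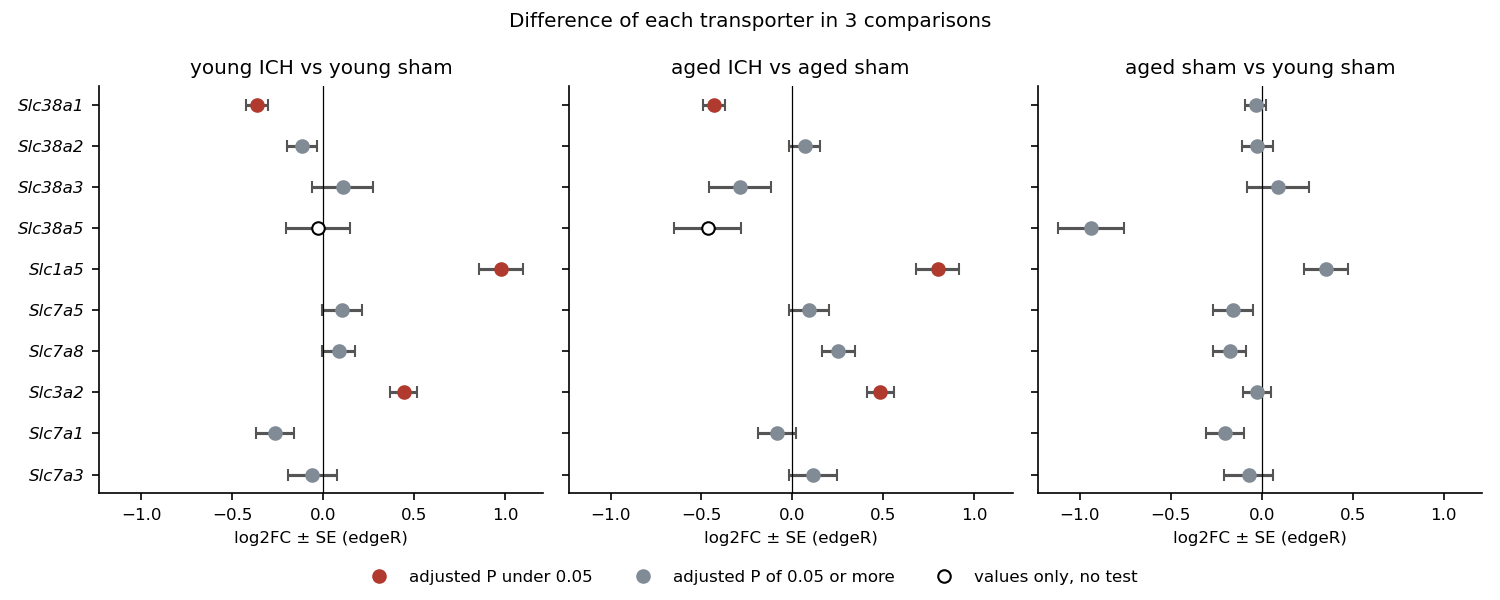
log2FC with SE from edgeR of the 10 transporters in 3 comparisons, with red for an adjusted P under 0.05, grey for 0.05 or more and open circles for Slc38a5 where it was not tested. Slc1a5, Slc3a2 and Slc38a1 are red in both ICH comparisons, and Slc38a5 is farthest from 0 between the sham groups at −0.94.

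The rest of the amino acid transporter families was read from a list of 42 further genes, of which 32 passed the filter on low counts. In young mice, 2 of the 32 rose and 6 fell after ICH, where 9.89% of all genes tested were called higher and 9.23% lower, and the median log2FC was 0.05 beside 0.02 for all genes. Slc1a4, the neutral exchanger related to Slc1a5, rose by 0.49 ± 0.10 (edgeR adjusted *P* = 0.00775), and Slc7a7, a light chain of Slc3a2 that exchanges cationic for neutral amino acids, by 0.72 ± 0.16 (adjusted *P* = 0.00971). Carriers known from neurons and synaptic vesicles were among those that fell. Slc6a17 fell by 0.60 ± 0.13 on the log2 scale (adjusted *P* = 0.00852), Slc6a15 by 0.36 ± 0.09 (adjusted *P* = 0.0201), Slc7a14 by 0.43 ± 0.12 (adjusted *P* = 0.025) and the glutamate carrier Slc1a1 by 0.30 ± 0.08 (adjusted *P* = 0.0288). In aged mice, 2 rose and 1 fell, shares that lie near or below the 7.00% and 6.15% of all genes, with a median of −0.11. Slc1a4 rose by 0.42 ± 0.10 (adjusted *P* = 0.0209), Slc7a6, another light chain of Slc3a2, rose by 0.30 ± 0.09 (adjusted *P* = 0.046) and the taurine carrier Slc6a6 fell by 0.44 ± 0.09 (adjusted *P* = 0.0116). Slc7a11, the cystine-glutamate light chain of Slc3a2, was looked up after its values were seen and did not pass, with 0.56 ± 0.18 (adjusted *P* = 0.0516) in young and 0.37 ± 0.18 (adjusted *P* = 0.201) in aged mice. For Slc7a6 in young and Slc7a7 in aged mice the log2FC were 0.22 ± 0.09 (adjusted *P* = 0.102) and 0.52 ± 0.16 (adjusted *P* = 0.0508).

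Genes of the amino acid response, which ATF4 and related factors switch on when amino acids run short, changed in both directions after ICH. Of 25, 12 rose and 2 fell in young mice (median log2FC 0.15), and 8 rose and 2 fell in aged mice (median 0.22). Over all genes tested, 9.89% were called higher and 9.23% lower in young mice, with 7.00% and 6.15% at the older age, so the lower calls lie near that background. In young mice the factor Atf3 rose by 2.64 ± 0.35 (edgeR adjusted *P* = 0.00147), Cebpb by 1.98 ± 0.30 (adjusted *P* = 0.00221), the pseudokinase Trib3 by 1.61 ± 0.25 (adjusted *P* = 0.00261) and the serine enzyme Shmt2 by 0.40 ± 0.07 (adjusted *P* = 0.00357). Asparagine synthetase Asns, a classical target of the response, fell by 0.42 ± 0.10 (adjusted *P* = 0.0173), and the tryptophanyl-tRNA synthetase Wars fell by 0.24 ± 0.06 (adjusted *P* = 0.0126). In aged mice Cebpb rose by 1.93 ± 0.29 (adjusted *P* = 0.00485), Atf3 by 2.10 ± 0.33 (adjusted *P* = 0.00505), the translation inhibitor Eif4ebp1 by 1.24 ± 0.25 (adjusted *P* = 0.0102) and Shmt2 by 0.35 ± 0.07 (adjusted *P* = 0.0104). Chac1, which degrades glutathione, fell by 0.56 ± 0.13 (adjusted *P* = 0.0207) and the secreted Stc2 by 0.76 ± 0.22 (adjusted *P* = 0.0423). Atf4 itself, looked up after its values were seen, did not pass at either age. It had 0.15 ± 0.09 (edgeR adjusted *P* = 0.27) in young and 0.25 ± 0.09 (adjusted *P* = 0.0939) in aged mice. Trib3 had 0.52 ± 0.24 in aged mice and did not pass (adjusted *P* = 0.168). Its log2FC of aged sham relative to young sham was 1.15 ± 0.26 (edgeR adjusted *P* = 0.16). Between aged ICH and young ICH it was 0.06 ± 0.23, with no test. The interaction for Trib3 was −1.09 ± 0.35 and was not called.

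Of 17 enzymes of glutamine, arginine and branched-chain amino acids, 7 rose and 1 fell at each age, with medians of −0.01 in young and −0.18 in aged mice. The shares over all genes were 9.89% higher and 9.23% lower in young mice, with 7.00% and 6.15% at the older age, and the single lower call at each age is near them. The enzymes that rose in young mice included endothelial nitric oxide synthase Nos3 by 0.94 ± 0.11 (edgeR adjusted *P* = 0.00108), the polyamine enzymes Sat1 by 0.79 ± 0.10 (adjusted *P* = 0.00137) and Odc1 by 0.96 ± 0.17 (adjusted *P* = 0.00431), and the branched-chain aminotransferase Bcat2 by 0.48 ± 0.09 (adjusted *P* = 0.00475). In aged mice Sat1 rose by 0.78 ± 0.10 (adjusted *P* = 0.00316), Odc1 by 0.93 ± 0.17 (adjusted *P* = 0.00876), Nos3 by 0.57 ± 0.11 (adjusted *P* = 0.00877) and Bcat2 by 0.45 ± 0.09 (adjusted *P* = 0.0102). The enzyme that fell in aged mice was glutamine synthetase Glul, by 0.37 ± 0.10 (adjusted *P* = 0.0326). Arginase Arg1, singled out after its values were seen, rose by 3.79 ± 0.72 (adjusted *P* = 0.0052) in young and 2.66 ± 0.64 (adjusted *P* = 0.0207) in aged mice. In none of the 3 lists did edgeR call a gene between the sham groups or in the interaction. At an unadjusted *P* under 0.05 there were 5, 4 and 2 genes between the sham groups and 1 per list in the interaction, near the 12.3% and 2.82% of all genes tested. DESeq2 called 1 enzyme between the sham groups, where it called 148 of all genes tested higher and 141 lower. In the interaction it called no gene of the lists.

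**Figure D5:**
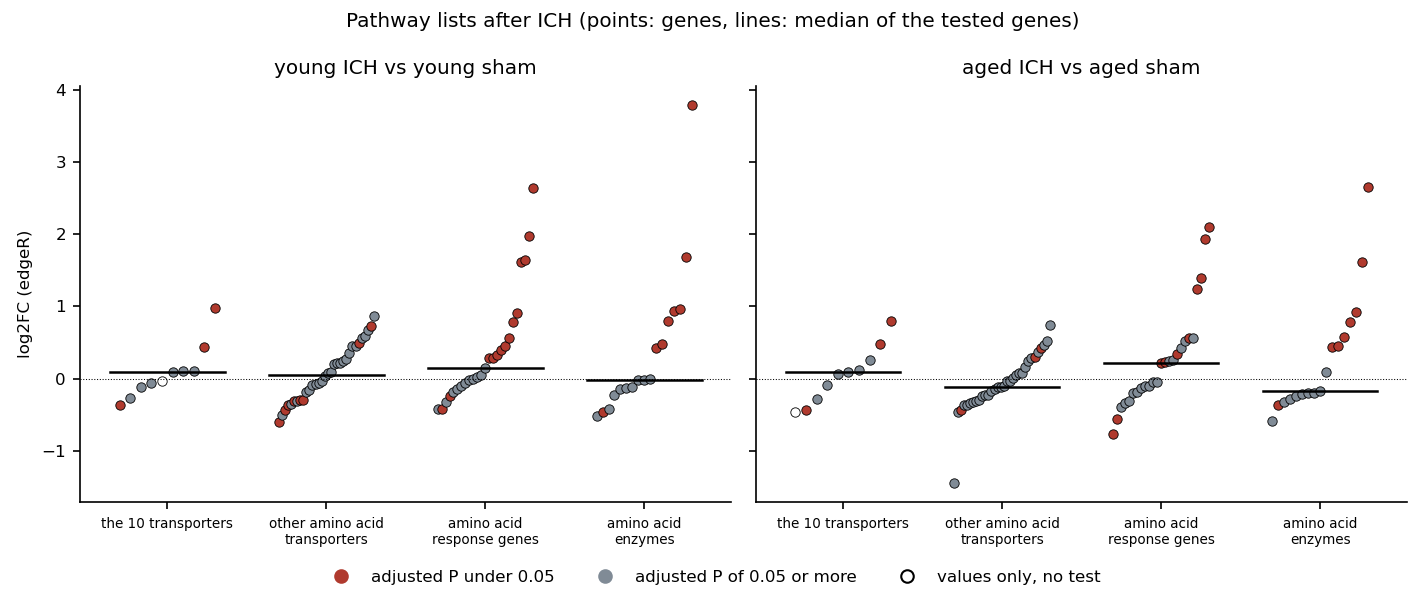
log2FC after ICH from edgeR of the 10 transporters and 3 lists of related genes (points) in young and aged mice, with lines at the median of the tested genes and red for an adjusted P under 0.05. The highest points are Arg1 at 3.79 and 2.66 and Atf3 at 2.64 and 2.10, above Slc1a5 at 0.98 and 0.80, and the lowest, at −1.45 in aged mice, is Slc38a8, which did not pass and was looked up after its values were seen.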

How the data were processed

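RNA-seq of 12 pools of tissue was analysed. Per the study's methods, the authors aligned paired reads to GRCm38.p6 with Hisat2 and quantified genes with FeatureCounts. The strand setting and the treatment of reads with several alignments are not given in the sources used here. The authors deposited raw counts and FPKM per gene and sample, and also their own fold changes and *P*-values, which were not used. Samples were grouped by their labels.

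Counts were tested with edgeR 4.0.16 (R 4.3.3, limma 3.58.1) by quasi-likelihood F tests in 1 fit of 4 groups with TMM factors (0.954 to 1.04). filterByExpr with a minimum count of 10 kept 21495 genes, over which *P*-values were adjusted by Benjamini-Hochberg at 0.05. CPM use TMM-scaled library sizes. The fit was tested on simulated data. The members and lists were chosen with earlier results of these data known. Named were the 10 members and, from each pathway list and ICH comparison, up to 4 called genes per direction with the smallest *P*, and marker genes as sums. A gene of the enzyme list is not reported here. Alternatives were DESeq2 1.42.0, RLE factors, no filter, 2 groups per fit, a replicate block, limma on log2(FPKM + 1) and log2(FPKM + 0.1) for genes with an FPKM of 0.1 in 3 samples, the study's call rule, and each sample left out. The fit without the libraries highest in choroid plexus markers was chosen after seeing the data. At this depth a member had 57 counts or more in every library, and intervals for single counts are not given.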

Additional observations from a re-analysis of the deposited data

How the results depend on the processing

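In all alternatives, planned or added, that gave a test, Slc1a5, Slc3a2 and Slc38a1 kept their direction after ICH at both ages. The cause of the shifts below was not tested. The study's criterion was a fold change above 1.5 or below 0.67 with an unadjusted *P* under 0.05. Under it, the called transporters numbered 1 in young mice, 1 in aged mice and 1 between the sham groups. The other transporters numbered 3, 1 and 1 with 1 in the interaction. The response genes numbered 6, 5 and 2 with 1 in the interaction, and the enzymes 5, 5 and 1. Of all 21495 genes tested, edgeR values under this criterion gave 1861 higher and 751 lower in young mice. They gave 1557 and 607 in aged mice, 606 and 193 between the sham groups and 104 and 232 in the interaction. DESeq2 called 1 transporter between the sham groups, 7 other transporters in aged mice and 1 enzyme between the sham groups. Over all genes tested, DESeq2 called 148 higher and 141 lower between the sham groups, and 1806 and 1896 in aged mice. Without a filter on low counts 1 transporter was called between the sham groups, with 61 higher and 16 lower among 39887 genes. With only the groups compared in the fit, the other transporters called numbered 3 in young and 7 in aged mice. Over all genes, this fit called 1326 higher and 1116 lower of 20401 in young mice, and 1349 and 1132 of 20661 in aged mice. The limma fit on log2(FPKM + 1) called 4 other transporters in young mice, with 2521 higher and 924 lower among 27104 genes. The fit without the 3 libraries highest in choroid plexus markers left 1 aged ICH sample, so its numbers of called genes are not compared. In that fit, the log2FC after ICH in aged mice was 0.77 for Slc1a5, 0.48 for Slc3a2 and −0.43 for Slc38a1.

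Leaving out each sample in turn, the called transporters ranged from 3 to 4 at both ages and from 0 to 1 between the sham groups, the latter being 1 without aged ICH replicate 3. Other transporters ranged from 2 to 9 in young mice (4 without young sham replicate 1, 2 without young sham replicate 2, 3 without young ICH replicate 3). They ranged from 0 to 6 in aged mice (6 without young ICH replicate 2 or 3, 1 without aged sham replicate 2 or aged ICH replicate 1, 0 without aged ICH replicate 3). Calls over all genes moved too. In young mice they were 2125 higher and 1985 lower of 21495 with all samples. They were 1622 and 1513 of 22067 without young sham replicate 1, and 965 and 893 of 22022 without young sham replicate 2. Without young ICH replicate 3 they were 1284 and 1127 of 21992. Response genes ranged from 8 to 15 in young mice (8 and 9 without young sham replicates 2 and 3) and from 4 to 11 in aged mice (5 without aged sham replicate 1 or 2, 4 and 6 without aged ICH replicates 1 and 3). Enzymes ranged from 4 to 9 in aged mice (5 without aged sham replicate 1, 4 without aged ICH replicate 1 or 3) and from 0 to 1 between the sham groups (1 without young sham replicate 1). Over all genes in aged mice, 1505 were called higher and 1323 lower of 21495 with all samples. These calls were 409 and 270 of 21986 without aged ICH replicate 1, and 751 and 471 of 22029 without aged ICH replicate 3. Without young ICH replicate 3 they were 1718 and 1609 of 21992. Between the sham groups they were 12 and 3 without aged ICH replicate 3, and 8 and 2 without young sham replicate 1.

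Small differences changed sign. On log2(FPKM + 1) and log2(FPKM + 0.1), the log2FC between the sham groups was 0.007994 and 0.008606 for Slc38a1, 0.01412 and 0.01452 for Slc38a2 and 0.01482 and 0.01527 for Slc3a2, and that of Slc7a3 in young mice was 0.0183 and 0.02583. Without the choroid-rich libraries Slc38a3 in young mice had −0.08347 and Slc7a3 0.01273. Leaving out 1 sample, the ranges between the sham groups were −0.06648 to 0.01088 for Slc38a1, −0.098 to 0.0392 for Slc38a2, −0.00427 to 0.181 for Slc38a3 and −0.06639 to 0.02318 for Slc3a2. In young mice they were −0.08309 to 0.2376 for Slc38a3 and −0.1558 to 0.01361 for Slc7a3, in aged mice −0.00195 to 0.1961 for Slc7a3, and in the interaction −0.1099 to 0.06858 for Slc7a5 and −0.02771 to 0.09995 for Slc3a2.

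The replicate numbers did not pair the samples, since same-numbered samples deviated from their group means with correlations of −0.454 to 0.235. With a replicate block, 3 transporters were called after ICH at each age and 0 between the sham groups, where Slc38a5 had a log2FC of −0.94 (adjusted *P* = 0.199), and no call among the transporters changed. Depth limits Slc38a5 most, with 57 counts in its lowest library.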
